A study of Mus musculus with 3 samples.

Results

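The major histocompatibility complex (MHC) of the mouse was described here as 171 tiled regions of a methylation array, out of 28880 on the whole array. The members were chosen by position alone: probes were joined into a region where each start was within 500 bp of the next, at least 3 probes were needed, and the midpoint had to fall between 34000000 and 36400000 on chromosome 17 of mouse build mm9. The 171 regions held 2688 probes and covered 241929 bases, which is 10.1% of the interval. Another 26 probes of the interval lay in runs too short to count. The files give probes by position and without gene names, so the name of the interval rests on its coordinates and could not be checked against genes.

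The study profiled methylated DNA of the frontal cortex. The animals were C57BL/6 males, naive and 2 months old. There was 1 group of 3 arrays, each with DNA pooled from 3 mice, and no second condition. On each array the DNA captured by an antibody against 5-methylcytosine (bound, Cy5) was set against the same pool's input DNA (Cy3), both after whole-genome amplification. The dye orientation was the same on all arrays, so a dye effect and enrichment cannot be told apart. The sample titles number the arrays as replicates 1 to 3, whereas their descriptions give each the number 1. The labels call them biological replicates, and nothing in them shows whether each had a pool of its own, so the errors may be technical. The DNA came from whole tissue of the frontal cortex, with neurons, glia and vessels together. The share of cells methylated at a site and the density of methylation in those cells thus cannot be told apart.

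In methylated DNA immunoprecipitation, fragments with many methylated CpG sites are captured best, so the ratio of bound to input DNA reports methylated CpG density and is not a methylation percentage. Each value is a log2 ratio, bound over input, taken relative to the median probe of the array. A value of 1 is therefore 2 times the median probe, and a value of 0 is neither an unmethylated nor a methylated reference. Errors are SDs over the 3 arrays, whose number limits the precision of every value. A region was called higher or lower when limma's test against 0, adjusted by Benjamini-Hochberg over all 28880 regions, gave a p under 0.05.

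The MHC encodes the proteins by which cells show peptides to T cells. Class I molecules, such as H2-K and H2-D, present peptides made inside the cell to CD8 T cells. Class II molecules, H2-A and H2-E, present peptides taken up from outside to CD4 T cells and are normally found on professional antigen-presenting cells. Between them lies the class III stretch, which holds genes of other functions, among them complement factors, the cytokine Tnf and heat shock proteins. The Q and T genes at the far end are class I genes of less variable kind. In healthy brain, class I genes are expressed at low level in most neurons, and microglia are the resident cells that can present antigen.

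In the RefSeq annotation of GRCm38, 50 genes on chromosome 17 carry an H2 symbol, 38 of them protein coding and 12 pseudogenes. The order of genes there runs from Tapbp, which loads peptides onto class I molecules, through H2-K1 to the class II block of H2-Oa, H2-DMa, Psmb9, Tap1, Psmb8, Tap2, H2-Ob, H2-Ab1, H2-Aa, H2-Eb1 and H2-Eb2. The class III genes follow, from the receptor gene Notch4 over C4b, Cfb and C2, the histone methyltransferase gene Ehmt2 and the heat shock genes Hspa1b and Hspa1a to Ltb, Tnf, Lta and the RNA helicase gene Ddx39b. H2-D1 and the Q genes H2-Q1 to H2-Q10 come next, then a block without class I genes that holds Pou5f1, Ddr1, Flot1, Tubb5 and Gnl1, and then H2-T24, H2-T23, H2-T22 and H2-T3. That annotation is of another build than the array, so it was used for order only and no region was given a gene. Below, the interval is read in 12 steps of 200 kb from 34000000 on. The start stretch is steps 1 to 3, nominally class I K and class II. The middle stretch, steps 4 to 7, runs from 34600000 to 35400000 and is nominally class III. The end stretch is steps 8 to 12, nominally class I Q and T. These borders are multiples of the step and not gene borders, so a stretch's name does not give the genes of a region in it.

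Bound DNA was above the array median in more MHC regions than it was below. Of the 171 regions, 67 were higher (39.2%) and 50 were lower (29.2%), while 54 were not called. Over all regions of the array the balance was the other way, with 27.9% higher and 38.1% lower, and among the 1138 other regions of chromosome 17 it was 27.4% higher and 39.4% lower. Among the called MHC regions, 24 were at least 2-fold above and 8 at least 2-fold below the median probe, which are 14.0% and 4.68% of all 171. The corresponding shares over the array were 8.84% and 8.13%. All 3 arrays had the same sign in 140 MHC regions (81.9%), against 79.3% over the array. The counts depend on where 0 is set and on the processing. With the mode of each array as 0, 35 MHC regions were higher (20.5%, against 11.1% over the array) and 101 lower (59.1%, against 69.9%). With the series matrix values, also centred on the median probe, 48.5% were higher and 16.4% lower, against 30.7% and 39.0% over the array. With loess within arrays the gap was narrow, at 35.1% higher and 29.2% lower, against 31.2% and 31.1% over the array. Over probes with both channels above background 56.8% were higher and 16.1% lower, against 51.7% and 22.6%.

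**Figure D1:**
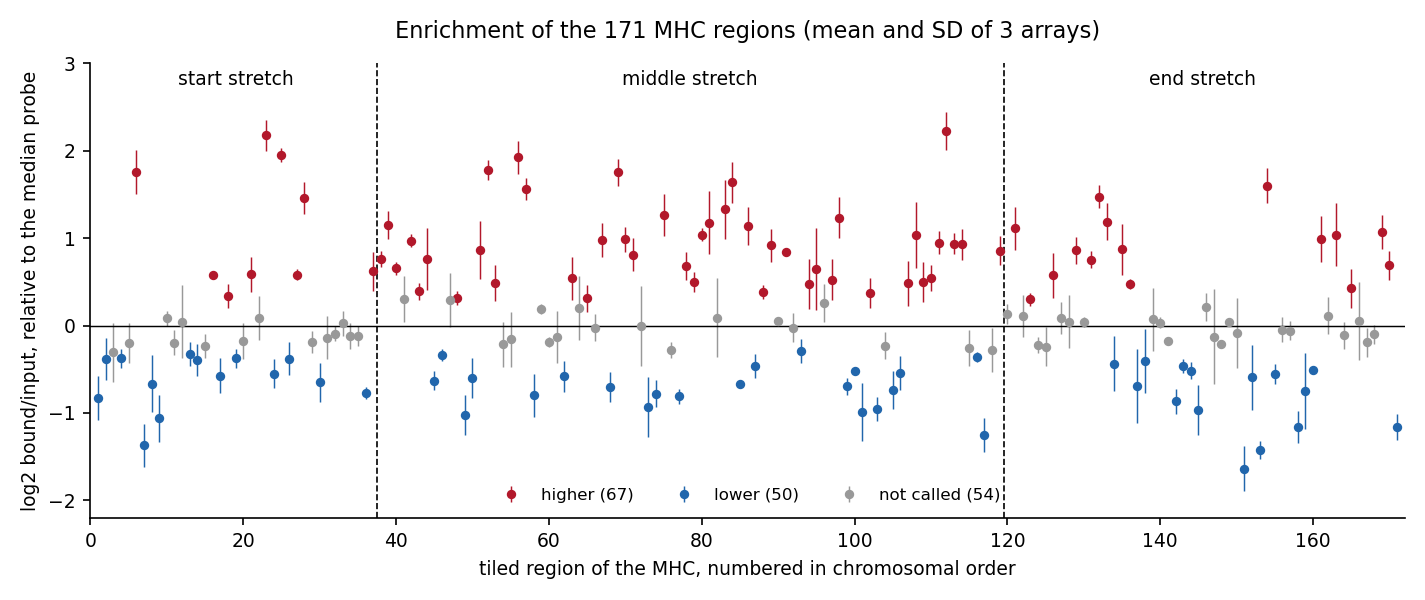
Mean log2 ratio of bound over input DNA (y axis, relative to the median probe of the array) of the 171 MHC regions numbered in chromosomal order (x axis), with bars for the SD of 3 arrays. Red points were called higher (67), blue lower (50) and grey neither (54). Dashed lines part the start, middle and end stretches, and region means run from -1.64 to 2.23.

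The mean over MHC regions was 0.232, 0.122 and 0.083 on replicates 1 to 3, and over the other regions of chromosome 17 it was -0.067, -0.054 and -0.083. The MHC mean thus lay above that of the rest of the chromosome on each array, most on replicate 1. The difference was 0.21 ± 0.07 (n = 3 arrays). A two-sided exact permutation test that flips the sign of each array gave p = 0.25, which is the smallest that 3 arrays allow, so the test could not pass a threshold of 0.05 whatever the size. The median MHC region stood at 0.04, against -0.14 on the rest of chromosome 17 and -0.11 over all regions. Regions differed far more among themselves (SD 0.78 over 171 MHC regions, 0.74 over the other chromosome 17 regions) than the sets differed in mean.

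The MHC was also measured with brighter probes. Input DNA was well above background in 87.4% of its probe measurements and bound DNA in 70.4%, against 75.0% and 55.2% on the rest of chromosome 17, and the mean log2 input signal was 9.81 against 9.175. With input signal and region length as covariates the difference was 0.17, over probes with input above background it was 0.37, and over probes with both channels above background, a choice that also selects on bound signal, it was 0.155. It was 0.10 with normexp background correction. No array had bound DNA above background at 477 of the 2688 MHC probes (17.7%), against 32.0% of the other chromosome 17 probes. At 146 of these 477 MHC probes input was also below background on all arrays, so the ratio has no limit on either side. Where input was above background, such probes give only an upper limit. Of the 50 lower MHC regions, 48 held at least 1 of the 477 probes. Of the 67 higher ones, 20 held at least 1 of the 146.

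By length of region, the difference from the rest of the chromosome held on 3 of 3 arrays in short and standard regions, was small in long ones and was within the spread of the arrays in intermediate ones. In the 87 MHC regions of standard length, 1000 to 1800 bp, the mean was 0.249 ± 0.075, with 40 higher (46.0%) and 20 lower. The 766 standard regions of the rest of chromosome 17 averaged -0.09 ± 0.02, with 26.9% higher and 39.9% lower. The per-array differences were 0.438, 0.286 and 0.282, a mean of 0.34 ± 0.09. The 37 long MHC regions, over 1800 bp, averaged -0.25 ± 0.02, with 7 higher (18.9%) and 20 lower (54.1%), close to -0.28 ± 0.03 for the 116 other long regions of the chromosome (17.2% and 54.3%), and differed from them by 0.029 ± 0.008. Whether the difference in standard regions exceeds that in long ones was not tested. The 27 short MHC regions, of at most 600 bp, averaged 0.36 ± 0.13, against 0.17 ± 0.08 elsewhere on the chromosome. The 20 intermediate MHC regions exceeded the 137 others by 0.241, 0.153 and -0.002 (0.13 ± 0.12). Long MHC regions were below standard MHC regions by -0.561, -0.496 and -0.431 on the 3 arrays (mean -0.496 ± 0.065, exact permutation p = 0.25).

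Along the interval, bound DNA was highest in the middle stretch, nominally class III. Of the 82 middle regions 43 were higher (52.4%) and 21 lower (25.6%), and their mean was 0.405, 0.288 and 0.205 on the 3 arrays. The 37 start regions, nominally class I K and class II, had 9 higher (24.3%) and 14 lower (37.8%), with means of 0.057, -0.061 and -0.013. The 52 end regions had 15 higher and 15 lower (28.8% each), with means of 0.086, -0.010 and -0.040. Calls in the start stretch were thus near the array's own shares of 27.9% and 38.1%.

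The middle stretch exceeded the start by 0.348, 0.349 and 0.218 on replicates 1 to 3, a mean of 0.305 ± 0.075. It exceeded the end by 0.319, 0.298 and 0.246, a mean of 0.29 ± 0.04. Both differences held on 3 of 3 arrays, with an exact permutation p of 0.25 (0.375 when adjusted over the 3 differences between stretches). The end and the start differed by 0.029, 0.051 and -0.028, which is within the spread of the arrays (0.02 ± 0.04, exact permutation p = 0.5). Against the rest of chromosome 17 the middle was higher by 0.37 ± 0.09, the start by 0.06 ± 0.07 and the end by 0.08 ± 0.06. With input signal and length as covariates, middle minus start was 0.16 and middle minus end 0.28. The mean log2 input signal was 9.59 in the start, 9.93 in the middle and 9.77 in the end stretch.

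The 12 steps held between 8 and 32 regions each. Step 1 was low at -0.180, -0.439 and -0.274 on the 3 arrays, with 1 of 15 regions higher and 8 lower. Step 2, which starts at 34200000, was at 0.443, 0.412 and 0.326, with 7 of 14 higher. Step 3 was at -0.174, -0.179 and -0.115 and was the dimmest of the 12, with input above background in 67.7% of measurements. The start stretch thus held a high step between lower ones, and its mean near 0 hides that.

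From 34600000 to 35800000 all 6 steps, 4 to 9, were positive on 3 of 3 arrays. They averaged 0.28 ± 0.06, 0.51 ± 0.13, 0.335 ± 0.123, 0.22 ± 0.10, 0.23 ± 0.13 and 0.46 ± 0.05 in chromosomal order. Step 5 had the highest mean, at 0.641, 0.507 and 0.383, but only 9 regions lay in it and its median region was at 0.19. The fullest steps, 6 and 7, had 14 of 27 and 17 of 32 regions higher. Step 9 had 6 of 10 higher, the largest share of any step (60.0%).

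The run of positive steps ended at 35800000. Step 10 was the lowest of the 12, at -0.452, -0.399 and -0.383, with no region higher and 5 of 8 lower (62.5%). Step 11 was at -0.201, -0.315 and -0.295, with 2 of 16 higher and 7 lower. Step 12, the last, was at 0.318, 0.164 and 0.061, with 4 of 10 higher. Input was above background in 81.1% to 92.9% of measurements in every step but step 3, and in 87.4% and 89.0% of them in the low steps 10 and 11. Bound DNA was above background in 66.9% and 69.7% of measurements in steps 10 and 11, against 70.4% over the MHC.

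In the order of the step means, most neighbours did not differ beyond the spread of the arrays. Of the 8 steps that were positive on all arrays, the upper and lower neighbour changed order on at least 1 array in all but 2 of the 7 pairs, which differed by 0.065 ± 0.010 and 0.04 ± 0.03. The widest gap in the order was between step 12 (0.18 ± 0.13) and step 3 (-0.16 ± 0.04), at 0.34 ± 0.16. It parts the 8 positive steps from the 4 negative ones, and each array drew that line in the same place.

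**Figure D2:**
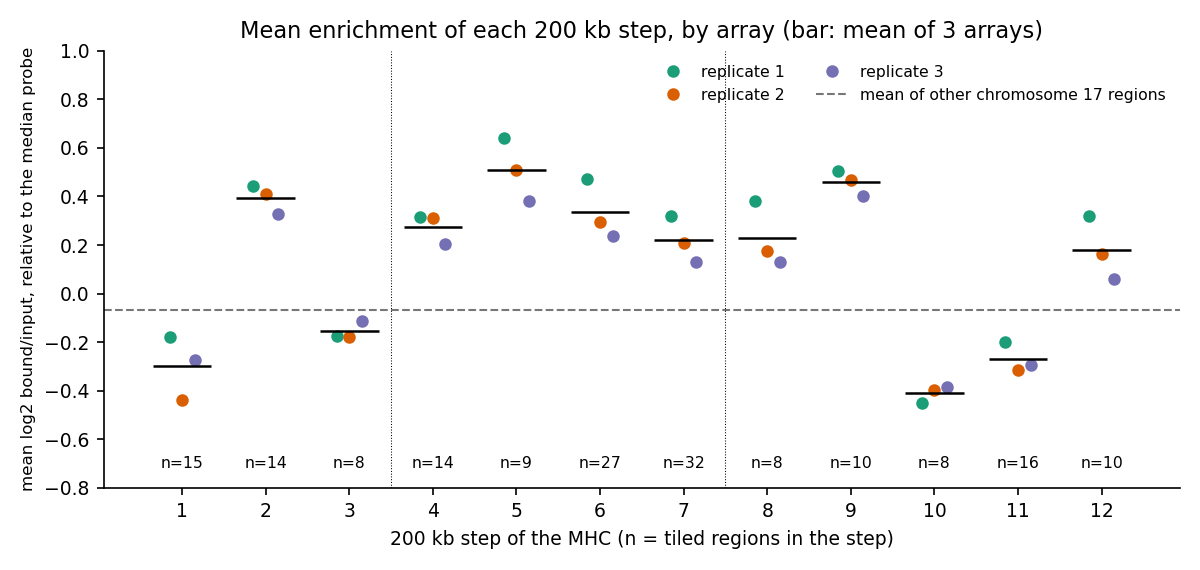
Mean log2 ratio of bound over input DNA (y axis) in each of the 12 steps of 200 kb (x axis), with 1 point per array, a bar at the mean and the number of regions below. The dashed line is the mean of the other chromosome 17 regions (-0.07), and dotted lines part the 3 stretches. Steps 2, 4 to 9 and 12 lie above 0 on all arrays and steps 1, 3, 10 and 11 below 0.

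**Figure D3:**
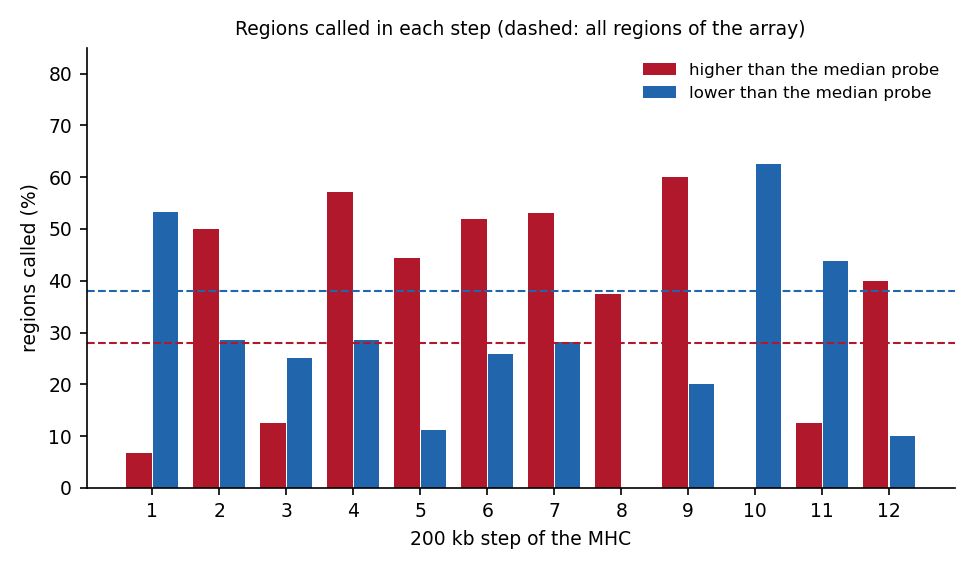
Share of regions called higher (red) and lower (blue) than the median probe (y axis, percent) in each 200 kb step (x axis). Dashed lines give the shares over all regions of the array, 27.9% and 38.1%. Lower calls outnumber higher ones in steps 1, 3, 10 and 11, and no region of step 8 was lower.

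Single regions named here were chosen as the highest and the lowest called region of each step and the 6 highest and 6 lowest of the interval, among 143 regions with at least 50% of probe measurements above background in each channel. That condition kept 66 of the 67 higher regions and 32 of the 50 lower ones, so some regions with little bound DNA are not ranked. Region numbers count the 171 regions in chromosomal order. These regions are extremes of the same arrays, and their adjusted p values describe how firmly each differed from the median probe.

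The highest region was number 112, on chromosome 17 from 35342141 to 35343333, in the middle stretch. Its log2 ratio was 2.438, 2.228 and 2.012 on replicates 1 to 3. All arrays placed it over 2, at 2.23 ± 0.21 over 11 probes, which is 4.68-fold above the median probe (limma adjusted p = 9.54e-08). The enrichment was one-sided: the first 5 probes, at -574 to -289 bp from the midpoint, stood between 3.095 and 3.84, and the last 3, from 238 bp after it, between 0.265 and 0.85. Of these last, the probe at 502 bp was below 0 on replicate 3 alone, at -1.201.

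Second was region 23 in the start stretch, from 34320455 to 34321500, with 2.269, 2.279 and 1.974 (2.17 ± 0.17, 13 probes, adjusted p = 9.29e-08). Region 25, from 34326503 to 34327898, followed with 1.909, 2.041 and 1.892 (1.95 ± 0.08). The region between them, number 24, from 34323337 to 34325576, had less bound DNA than the median probe, at -0.551 ± 0.165. Over 3 neighbouring regions, with gaps of 1836 and 926 bp, the signal was thus high, low and high again, and the changes were -2.725 ± 0.306 and 2.498 ± 0.246, each present on 3 of 3 arrays. When starts up to 1000 bp apart were joined, regions 24 and 25 became 1 region that was not called (0.22). Region 26 was lower again at -0.38 ± 0.19 and region 27 higher at 0.58 ± 0.06.

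Of the other regions among the 6 highest, regions 56 and 52 had few probes. Region 56, from 34979709 to 34980055, had 2.107, 1.734 and 1.930 over 5 probes, with every measurement above background in both channels. Region 52, from 34807008 to 34807655, had 1.769, 1.897 and 1.676, also over 5 probes. Region 6, from 34069672 to 34070909, was the only higher region of step 1, with 1.917, 1.883 and 1.470 over 18 probes (1.76 ± 0.25, adjusted p = 5.69e-07).

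Region 6 stood directly beside the second lowest of the ranked regions. Region 153, which was not ranked, was lower than that at -1.425 ± 0.100. Region 7, from 34076443 to 34078434, had -1.448, -1.570 and -1.093 over 26 probes (-1.37 ± 0.25, adjusted p = 3.03e-06). Regions 6 and 7 are 5533 bp apart and differed by -3.366, -3.453 and -2.562, the largest change between neighbours of opposite call within 10000 bp in the interval. Bound DNA was above background in 45 of the 78 measurements of region 7, and over its probes with both channels above background the value was -0.84.

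The lowest region of all was number 151, from 36046393 to 36047320, in the end stretch. It had -1.895, -1.635 and -1.377 over 13 probes (-1.64 ± 0.26, adjusted p = 9.53e-07), so bound DNA was 3.11-fold below the median probe. The low value was well measured, since input was above background in all 39 measurements and bound DNA in 33 of them. Each of the 13 probes was below 0 in the mean of the arrays, from -2.59 to -1.24, without a clear trend along the region. With normexp it was -1.005.

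Region 9, from 34091612 to 34093865, was at -0.947, -1.364 and -0.868, and with regions 7 and 8 formed a run of 3 lower regions over 17423 bp. Region 103, from 35270913 to 35273023, was at -0.816, -1.091 and -0.956. Region 73, from 35068082 to 35068408, was at -0.537, -1.113 and -1.147 over 5 probes, with replicate 1 the highest of the 3. Region 142, from 35957753 to 35960660, was at -1.030, -0.80 and -0.778 over 32 probes. These complete the 6 lowest of the ranked regions, and each was below 0 on 3 of 3 arrays. Bound DNA was above background in only 34 of 66 measurements of region 9, 36 of 69 of region 103 and 8 of 15 of region 73. In region 142 it was above background in 65 of 96. Over probes with both channels above background, regions 9, 103 and 142 stood at -0.465, -0.801 and -0.704. Region 73 had no such value and was at -0.327 with normexp.

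Among the highest regions of single steps, number 69, from 35041754 to 35044521, was the longest. It had 1.923, 1.691 and 1.640 over 31 probes (1.75 ± 0.15, adjusted p = 3.65e-07), with bound DNA above background in 92 of 93 measurements. Region 39, from 34654172 to 34655502, had 1.273, 1.198 and 0.964, and region 132, from 35687926 to 35689240, had 1.624, 1.366 and 1.432. In the end stretch region 154, from 36097557 to 36098975, had 1.826, 1.524 and 1.452, region 121, from 35456368 to 35456809, had 1.327, 1.168 and 0.842, and region 169, from 36306162 to 36306699, had 1.260, 1.071 and 0.868. All 6 of these exceeded 0.8 on every array. The highest region of the dim step 3, number 37, from 34553180 to 34555157, was lower than these, at 0.689, 0.802 and 0.373 over 26 probes, and stood at 1.32 over its probes above background in both channels. It was not called with the array mode as 0 (0.06) or with the series matrix values (0.265).

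Among the ranked regions, the lowest of the remaining steps were closer to the median. Regions called lower but not ranked went further down in step 4 (region 49, -1.03 ± 0.23) and step 9 (region 137, -0.69 ± 0.43). Region 17, from 34251826 to 34253077, had -0.677, -0.346 and -0.693, region 45, from 34733582 to 34735002, had -0.752, -0.597 and -0.541, and region 58, from 34986588 to 34988271, had -0.515, -0.920 and -0.957. Region 134, from 35737729 to 35738319, had -0.211, -0.789 and -0.305 and was the weakest of the named calls (-0.435 ± 0.310, adjusted p = 0.0141). By limma it was no longer called with normexp (-0.12, adjusted p = 0.0711), with loess (-0.11, adjusted p = 0.403) or without replicate 2 (-0.26, adjusted p = 0.259), and it changed sign with the series matrix values (0.04), so its direction was not settled. Region 45 was not called with the series matrix values (-0.14), nor region 17 with the median of its probes (-0.335). No region of steps 3, 8 and 12 met the conditions for a lowest region.

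The 3 longest regions of the interval, picked by length, took different values. Region 100, 5295 bp with 56 probes, had -0.503, -0.575 and -0.479. Region 141, 5130 bp with 49 probes, had -0.208, -0.194 and -0.122 and was not called. Region 129, 4685 bp with 52 probes, had 1.023, 0.850 and 0.710 and was one of 7 long regions called higher.

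Some neighbouring regions shared a call. The longest run was of 8 higher regions, numbers 107 to 114, from 35309465 to 35359596, a span of 50132 bp with 96 probes. It averaged 0.95 ± 0.16, its regions ran from 0.48 to 2.23, and it includes region 112. Runs of 4 higher regions covered 34553180 to 34684925 (0.795 ± 0.119) and 35136789 to 35153739 (0.85 ± 0.11). A run of 4 lower regions covered 35957753 to 35998649 (-0.705 ± 0.117), and one of 3 covered 36046393 to 36054990 (-1.218 ± 0.085). Between these the sign changed often: of the 170 pairs of neighbouring MHC regions, 48 had the same call (28.2%) and 34 had opposite calls (20%). These shares were close to those of the 1136 other pairs of chromosome 17, at 28.6% and 17.8%.

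Apart from regions 6 and 7 and regions 23 to 25, opposite calls lay close together at several other places. Regions 67 and 68, 535 bp apart, were at 0.981 ± 0.195 and -0.705 ± 0.168, with region 68 lower by -2.074, -1.486 and -1.498 on the 3 arrays. Region 68 was followed 5627 bp further by region 69 at 1.75 ± 0.15. Regions 85 and 86, 1445 bp apart, were at -0.67 ± 0.05 and 1.138 ± 0.215. Regions 57 and 58, 5601 bp apart, were at 1.56 ± 0.13 and -0.797 ± 0.245. The difference of each of these pairs kept its sign on 3 of 3 arrays.

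Within regions of standard length, bound DNA was lower at the centre on average, in the MHC as elsewhere. Probes within 200 bp of the midpoint were counted as centre and those over 500 bp away as edges, and 79 MHC regions had at least 2 probes in each part. Their centres averaged 0.11 ± 0.06 and their edges 0.355 ± 0.116. The difference was -0.304, -0.228 and -0.198 on the 3 arrays, a mean of -0.243 ± 0.055 (exact permutation p = 0.25). Among 704 other standard regions of chromosome 17 the difference was -0.26 ± 0.06. Centre and edges were each higher in the MHC than there (-0.23 ± 0.03 and 0.03 ± 0.03). The contrast itself differed by 0.018 ± 0.002 between the sets (exact permutation p = 0.25), a value that changed sign over the alternatives.

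By limma's test across all 18326 standard regions, a lower centre was called in 26 of the 79 MHC regions (32.9%) and a higher one in 12 (15.2%). Over the array these shares were 33.5% and 14.7%, so the MHC counts stood near the background. Without replicate 2, a higher centre was called in 4 of 79 MHC regions and a lower one in 19. The array's shares in that setting are not given here, so the drop is not read as a trait of the MHC. The mean difference was -0.27 ± 0.06 over 19 start regions, -0.13 ± 0.06 over 41 middle regions and -0.45 ± 0.12 over 19 end regions. The median region did not follow the mean in the start stretch, where it stood at 0.13 with the centre above the edges in 10 of 19 regions, so the mean there rests on fewer, larger deficits. The medians were -0.23 in the middle and -0.49 in the end stretch. Differences between the stretches in this measure were not tested. In the middle stretch the profile ran from 0.27 ± 0.13 within 100 bp of the midpoint to 0.47 ± 0.07 at 600 to 700 bp. In the end stretch it ran from -0.33 ± 0.06 to 0.245 ± 0.075. In the start stretch it had no steady course, with 0.10 in the bin next to the midpoint, 0.01 in the bin from 300 bp, 0.41 in that from 400 bp and 0.22 in the one from 600 bp. On the rest of chromosome 17 it ran from -0.26 ± 0.05 to 0.045 ± 0.021.

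**Figure D4:**
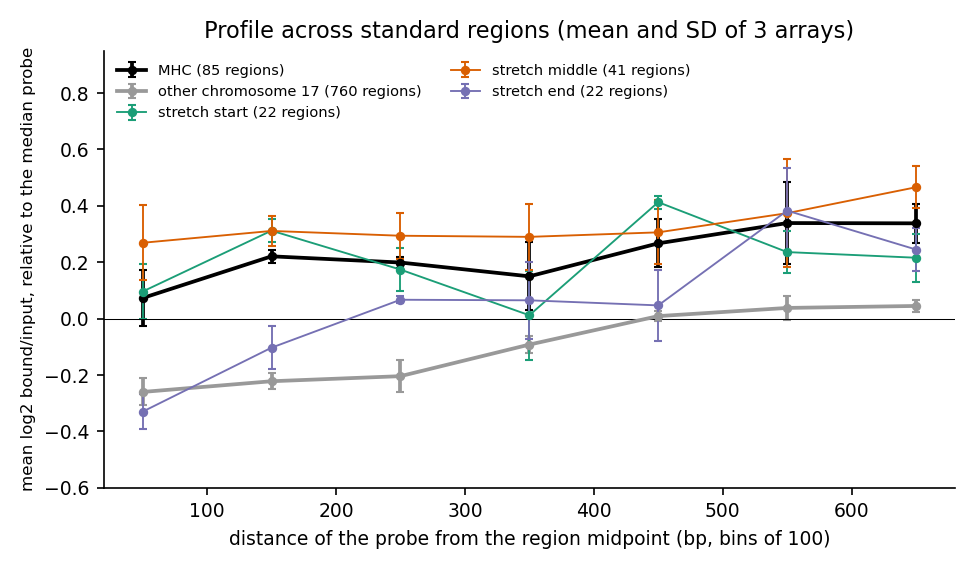
Mean log2 ratio of bound over input DNA (y axis) by distance of the probe from the midpoint of its region (x axis, bins of 100 bp) in standard regions with at least 8 probes, as mean and SD of 3 arrays. Thin coloured lines are the 3 stretches. The 85 MHC regions (black) lie above the 760 other chromosome 17 regions (grey) in every bin, from 0.07 against -0.26 next to the midpoint to 0.34 against 0.045 at 600 to 700 bp.

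The largest deficit at the centre belonged to region 148, from 36025008 to 36026441, with a centre of -1.65 ± 0.29 and edges of 0.638 ± 0.135. The difference was -2.736, -2.174 and -1.947 (limma adjusted p = 4.98e-05), and its probes ran from 2.19 at -692 bp from the midpoint down to -1.77 just after it. The high edge was on 1 side, with 1.05 and 0.69 at -605 and -550 bp. At 579, 630 and 690 bp the probes stood at -0.58, 0.26 and 0.21. No array had bound DNA above background at the probe at -222 bp, which stood at 0.79, or at the centre probe at -164 bp. Region 48, from 34752568 to 34754133, had a centre of -0.75 ± 0.28 and edges of 1.46 ± 0.17, a difference of -2.21 ± 0.11. Region 165, from 36266175 to 36267438, differed by -1.97 ± 0.29, but by -0.47 with loess, where it was no longer called (limma adjusted p = 0.119). Region 26, from 34333464 to 34334931, differed by -0.919, -2.418 and -2.157, with replicate 1 well apart from the others, and by -0.29 with normexp.

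The opposite shape was found in region 58, with 0.88 ± 0.49 at the centre and -1.32 ± 0.19 at the edges. The difference was 2.556, 2.378 and 1.673, and it includes centre probes with bound DNA below background, among them the highest one. Region 166, from 36280840 to 36282152, differed by 1.839, 2.227 and 2.465, and neither region had enough probes above background in both channels to repeat the contrast on those alone. Region 97, from 35236606 to 35237965, differed by 1.06 ± 0.30. Region 110, from 35330194 to 35331784, differed by 1.004 ± 0.16 and lost limma's call with loess (0.23, adjusted p = 0.465) and with the median of probes (0.67, adjusted p = 0.0708). Region 97 lost limma's call without replicate 2 (0.92, adjusted p = 0.0532).

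**Figure D5:**
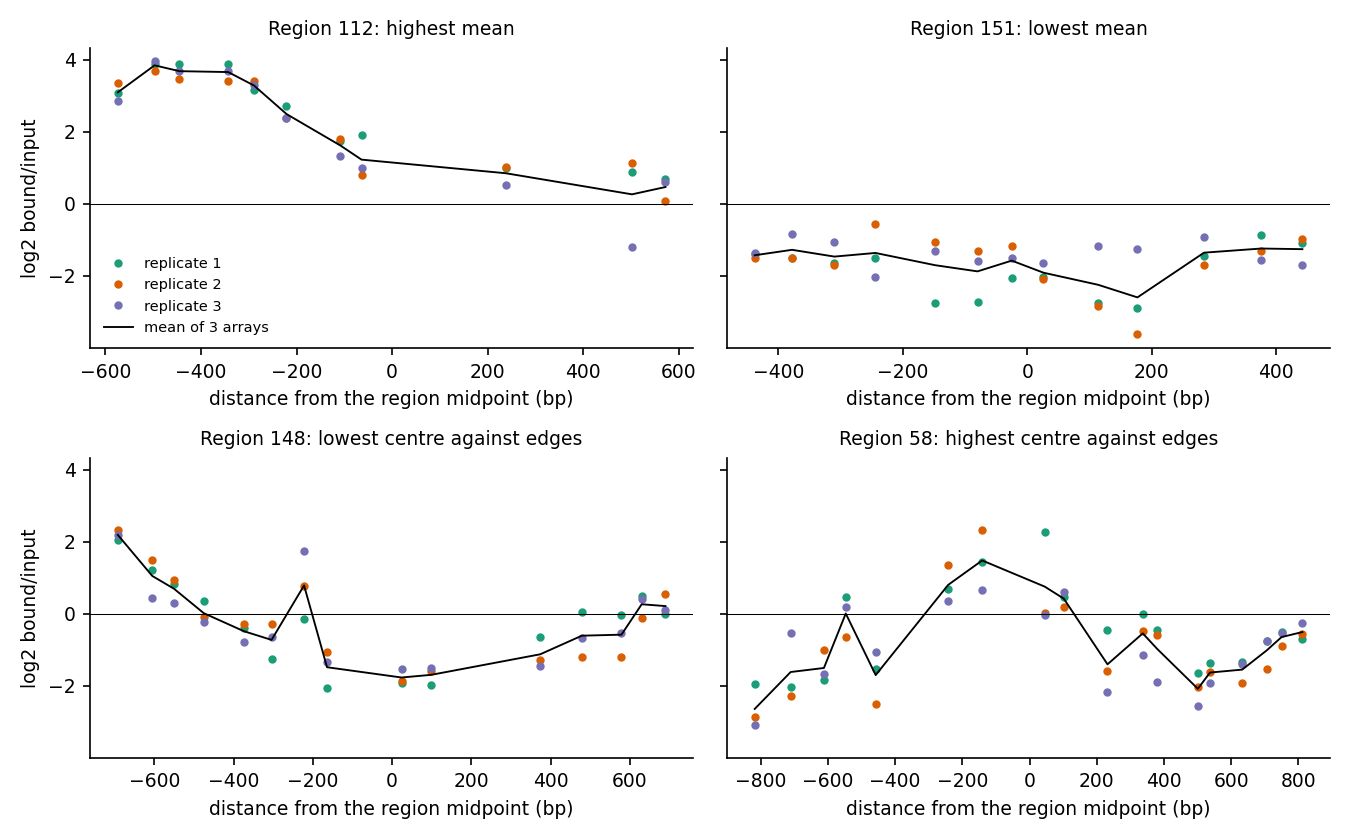
Log2 ratio of bound over input DNA (y axis) of each probe by its distance from the region midpoint (x axis, bp) in the regions with the highest mean (112), the lowest mean (151), the lowest centre against edges (148) and the highest centre against edges (58). Coloured points are the 3 arrays and the line their mean. The probe means of region 112 fall from 3.84 to 0.265 along its length, while those of region 151 all lie at -1.24 or lower.

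At the borders of the interval the neighbouring regions showed no shared step. The last 2 regions before 34000000 were at -1.07 ± 0.08 and -0.80 ± 0.13, and the first inside was at -0.83 ± 0.25. The last region inside was at -1.17 ± 0.15, and the first 2 after 36400000 were at 0.085 ± 0.103 and 0.02 ± 0.49.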

How the data were processed

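Per the file headers, the scanner files came from Agilent Feature Extraction 10.7.3.1 with probes placed on mm9 (NCBI37), and their processed intensities had been corrected for background, spatial trend and dye, with substitute values near background. The log10 ratio column, red over green per the file headers, was not used. The authors' deposited series matrix gives log2 ratios, with column medians of -0.97 each. They correlated with log2 of bound over input spot medians at r = 0.999 or more, which sets their direction, and their normalisation is unknown here.

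From the deposited intensities log2(bound/input) was computed, outlier spots were dropped (none in the MHC), repeated spots averaged and each array centred on its median probe (-0.19, -0.19 and -0.09 before centring), with no loess or quantile step. The deposited flags, other values of 0 or 1, gave spots well above background. No MHC spot was saturated. Region means were tested against 0 with limma 3.58.1 (R 4.3.3, empirical Bayes, Benjamini-Hochberg). That step was also run on simulated data, where far fewer regions differed than were called here and the smallest shift tried was missed. The simulation thus does not vouch for the calls. Differences between sets were tested over arrays by flipping signs exactly, two-sided (Python 3.11.15). Replicate arrays correlated at r of 0.93 to 0.95 across the 171 regions, which are not independent.

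Named regions were the highest and lowest called region per step, the 6 highest and 6 lowest overall and the 4 highest and 4 lowest centre contrasts, each with 1 sign over the arrays and at least 50% of measurements above background per channel. That gave 23 regions and 8 contrasts. Members, gene list and stretches were chosen with earlier results of these data known. The gene list served for gene order only, and no sequence is printed, because no mm9 annotation or genome was used here. Normexp used spot medians (offset 50). Alternatives were normexp, loess, matrix values, the array mode as 0, filters on dim probes, other region rules, moved borders, covariates and leaving out each array.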

Additional observations from a re-analysis of the deposited data

How the results depend on the processing

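The MHC mean stayed above that of the other chromosome 17 regions, and the middle stretch above the start and the end, under every alternative run, at sizes that varied. Under normexp the MHC difference was 0.10, middle minus start 0.133, middle minus end 0.136, end minus start -0.003, centre minus edges -0.119, the same against other chromosome 17 regions -0.008, and 19 regions had a higher centre. With loess these were 0.126, 0.183, 0.193, -0.011, -0.138 and 0.12 (10 higher centres). With the series matrix values 28 MHC regions were lower, the MHC difference was 0.393, end minus start 0.094 and the centre contrast against other regions 0.006, and region 134 reversed to 0.036. With the mode as 0, 35 regions were higher and 101 lower. With both channels above background 25 of 155 were lower (16.1%, against 22.6% over the array), middle minus end was 0.249, end minus start -0.008, centre minus edges -0.309 and that against other regions -0.06. With input above background the MHC difference was 0.366, end minus start 0.098 and the relative centre contrast 0.083. The median of probes gave 6 higher centres and a relative contrast of -0.012. Joining starts within 300 bp gave a relative contrast of 0.052, and within 1000 bp gave 7 higher centres, centre minus edges of -0.373 and a relative contrast of -0.106. With at least 8 probes middle minus start was 0.21, middle minus end 0.249 and end minus start -0.039. Standard regions on both sides gave an MHC difference of 0.336. Moving the stretch borders 200 kb down gave middle minus end of 0.189, and up gave middle minus start of 0.224 and end minus start of -0.10. Chosen after seeing the data were 3 further settings. Matrix values with input above background gave 102 higher and 27 lower of 166 regions (61.4% and 16.3%, against 46.1% and 29.3% over the array), an MHC difference of 0.348, middle minus end 0.243, end minus start 0.111, a relative contrast of 0.045 and 0.129 for region 134. Normexp with input above background gave middle minus start of 0.179, middle minus end of 0.155, centre minus edges of -0.144 and a relative contrast of 0.024. Input signal and length as covariates gave middle minus start of 0.164 and end minus start of -0.027. Leaving out each array in turn gave an MHC difference of 0.171 to 0.237, 59 to 65 higher and 40 to 56 lower regions, and 4 to 9 higher centres. Each time, the share of higher regions was larger in the MHC than over the array, and the share of lower regions was smaller. The array's shares of higher centres under the alternatives are not given here, so changes in those counts are not read as a trait of the MHC. Of 360 values of the 23 named regions under alternatives, 347 kept direction and call, 11 lost the call and 2 reversed, and of 119 for the 8 centre contrasts 115 kept both and 4 lost the call. The cause of these changes was not tested. No paired analysis was possible because the series has 1 group and no second condition. With 3 arrays the exact permutation test could not pass a threshold of 0.05, and at probes near background the bound signal gives only a limit.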

Other observations

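In windows of 2.4 Mb laid along chromosome 17 from the borders of the interval, 19 held at least 20 regions, and the MHC window was the fullest, with 171 regions against 132 for the next. It also had the highest mean log2 input signal of the 19. Its mean log2 ratio of 0.146 ± 0.077 ranked 6 and its share of higher regions ranked 5, so other stretches of the chromosome had more bound DNA. The highest was the window from 48.4 to 50.8 Mb, at 0.47 ± 0.14 over 26 regions with 65.4% higher. The windows on either side of the MHC were lower, at -0.351 ± 0.035 over 71 regions (directly before) and -0.002 ± 0.116 over 88 regions (directly after). Both were dimmer than the MHC window, where input was above background in 87.4% of measurements and bound DNA in 70.4%. These shares were 77.9% and 52.9% directly before, and only 52.4% and 34.9% directly after, so many probes there give only limits. The windows were laid out with the data already known, and differences between them were not tested.

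Neighbouring MHC regions were only weakly alike in value. Pearson's r between a region and the next was 0.12 over 170 pairs in the MHC and 0.14 over the other chromosome 17 pairs, as a description of sites that share arrays and probe design. For pairs at most 2000 bp apart r was 0.22 (n = 47), and for those 2000 to 10000 bp apart it was -0.06 (n = 58), but for pairs over 10000 bp apart it was 0.21 (n = 65), so likeness did not fall steadily with distance. In the class of 2000 to 10000 bp 18 pairs had opposite calls (31.0%) and 14 the same call (24.1%), against 22.5% and 27.0% of 222 other chromosome 17 pairs.

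Standard MHC regions called higher as a whole had a lower centre in 9 cases and a higher centre in 9, out of 35 (25.7% each, against 26.3% and 19.7% over the array). Of the 19 called lower, 7 had a lower centre (36.8%, against 40.7%) and 2 a higher one (10.5%, against 11.6%). Of the 25 not called, 10 had a lower centre (40.0%, against 31.4%) and 1 a higher one (4.0%, against 13.9%).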
